A study of Mus musculus with 4 samples.

Results

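The gene bodies of long protein-coding genes were examined in chromatin immunoprecipitation sequencing (ChIP-seq) of mouse embryonic stem cells. A long gene was a protein-coding gene of the GENCODE vM1 annotation (mm9) on chromosomes 1 to 19 with a length of at least 20 kb. This held for 9328 of the 21418 protein-coding genes on those chromosomes and of 22380 in all. The body ran from 5 kb downstream of the transcription start site (TSS) annotated for the gene to the end of the gene, without the 2 kb on each side of any other annotated TSS. A usable body of at least 5 kb remained for 9276 genes, and 52 were left out. The usable bodies had a median of 39.5 kb, and 1104 genes overlapped another long gene and shared reads with it.

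All 4 libraries came from E14TG2a.4, a feeder-independent embryonic stem cell line kept on gelatin with serum and LIF, the cytokine that holds these cells undifferentiated. The Jarid1b-DAIN antibody was used on E14 cells for 2 libraries. C42D8, a rabbit monoclonal antibody to trimethylated lysine 4 of histone H3 (H3K4me3), was used on cells that carried a lentivirus, PLKO.1, with either a scramble or a Jarid1b short hairpin RNA (shRNA), 1 library each, after puromycin selection. Both H3K4me3 samples are pools of transduced cells of 1 line, the remaining Jarid1b of the shRNA cells cannot be read from these files, and no input or IgG library was used here. In the scramble library, H3K4me3 at TSS windows was checked against the cell label: 8 of 10 embryonic stem cell markers were marked, against 0 of 8 fibroblast, 0 of 5 blood, 0 of 4 liver and 1 of 5 neuron markers.

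Jarid1b, the product of Kdm5b, is an enzyme that erases methylation at lysine 4 of the H3 tail. H3K4me3 lies mainly at active or poised promoters and falls away inside genes, where elongating RNA polymerase II leaves H3K36 methylation instead. Jarid1b has been described both at promoters and inside the bodies of active genes. The study's title links it to developmental genes and neural differentiation.

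Reads were counted once per chromosome, strand and 5′ base, called positions here. On chromosomes 1 to 19 the libraries held 4200219 and 1553045 positions (Jarid1b replicates 1 and 2), 4963830 (scramble H3K4me3) and 2562906 (Jarid1b shRNA H3K4me3). The Jarid1b libraries shared 17.0% of the plus-strand positions of replicate 2, which was 12.8 times the level at other offsets, and over 9262 bodies their counts differed by no more than sampling noise (chi-square per degree of freedom 1.01, against 2.57 between the H3K4me3 libraries). They were therefore treated as 1 sample with n = 1, and each value is given for both. The number of positions of a body was divided by the number expected from 1058418 intergenic bins of 1 kb, over 10 kb from any gene, in the same class of GC content. A ratio of 1 thus means the intergenic level at that GC content. At the length threshold, Dydc2 (20 kb, inside) had Jarid1b ratios of 1.62 and 1.64 and Pmpcb (inside) 0.921 and 0.447, while Ms4a4b and Fuk (just under, outside) had 1.23 and 1.64 and 1.23 and 1.39. Intervals are 95% intervals of counting error, and none of them covers the spread between intergenic stretches or between cultures.

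The intronic stretches shown here lie inside long genes, in bins of 1 kb chosen for the highest H3K4me3 or Jarid1b ratios. Each is the plus strand of mm9, 200 bases 5′ to 3′, lies in an intron with no exon or UTR and is over 5 kb from every annotated TSS. Capitals mark CG dinucleotides. The 3 bins of 1 kb with the highest product of both H3K4me3 ratios held these windows, in Atrnl1 (chr19:57742167-57742366), Top1 (chr2:160481361-160481560) and Hnrnpf (chr6:117868243-117868442).
Atrnl1: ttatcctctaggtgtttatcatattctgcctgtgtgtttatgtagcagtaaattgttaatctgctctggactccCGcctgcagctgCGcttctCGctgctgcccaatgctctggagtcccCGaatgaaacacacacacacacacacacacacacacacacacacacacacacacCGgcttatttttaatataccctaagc
Top1: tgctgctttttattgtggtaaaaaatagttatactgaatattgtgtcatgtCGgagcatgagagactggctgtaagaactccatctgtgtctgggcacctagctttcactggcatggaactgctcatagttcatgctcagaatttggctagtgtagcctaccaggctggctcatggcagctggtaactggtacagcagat
Hnrnpf: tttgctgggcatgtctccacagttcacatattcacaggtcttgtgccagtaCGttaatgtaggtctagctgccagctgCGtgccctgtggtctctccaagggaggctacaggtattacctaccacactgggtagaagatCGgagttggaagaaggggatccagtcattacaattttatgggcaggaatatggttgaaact
One of the 2 bins with the highest product of both Jarid1b ratios, among bins with under 30 positions in each Jarid1b library and at least 90% unique 34-mers, held this window, in Timd2 (chr11:46489336-46489535). The window of the other is not shown.
Timd2: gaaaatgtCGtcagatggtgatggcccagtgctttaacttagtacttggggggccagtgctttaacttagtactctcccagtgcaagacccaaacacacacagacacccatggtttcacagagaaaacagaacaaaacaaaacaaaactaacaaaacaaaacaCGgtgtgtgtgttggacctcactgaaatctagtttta

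The Atrnl1 bin held 155 scramble and 44 shRNA H3K4me3 positions, which were 100 and 66.8 times the expected number, and 3 and 3 Jarid1b positions. Top1, which encodes DNA topoisomerase I, held 185 and 41 H3K4me3 positions and 2 and 2 Jarid1b positions. Hnrnpf, which encodes an RNA-binding protein of splicing, held 115 and 22 H3K4me3 positions and 2 and 1 Jarid1b positions. The 3 windows held 5, 1 and 3 CG dinucleotides in that order. These bins were chosen for their H3K4me3 and the next for its Jarid1b, so those levels are a description. The Timd2 bin held 19 and 24 Jarid1b positions (15.6 and 56.8 times expected) and 4 and 4 H3K4me3 positions (3.72 and 10.1 times). All 4 libraries were thus above expectation in it, as they were in the other bin chosen for Jarid1b.

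Over all long gene bodies, Jarid1b positions lay slightly above the intergenic level. Bodies held 1.82 positions per kb in Jarid1b replicate 1 where 1.67 were expected, and 0.668 in replicate 2 where 0.608 were expected. The pooled ratios were 1.09 (interval 1.09 to 1.09) and 1.10 (1.10 to 1.10), and the median genes stood at 1.12 and 1.13. The ratio was above 1 in 6804 genes (73.4%) and 6419 genes (69.2%), against 16309 and 16415 of 37275 intergenic blocks of 25 kb. On every one of the 19 chromosomes the pooled ratio exceeded 1, from 1.04 to 1.15 in replicate 1 and from 1.05 to 1.16 in replicate 2. The excess was small and spread over most genes, and the middle of the distribution overlapped that of intergenic blocks. Bodies also held more unique sequence: 89.7% of their 34-mers occurred once in the genome against 82.0% in intergenic bins. With bins matched on this share as well, the median over both libraries was 1.13, as before.

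H3K4me3 in the same bodies depended on the intergenic reference. Bodies held 1.45 positions per kb in the scramble library where 1.64 were expected, and 0.675 in the shRNA library where 0.729 were expected, for pooled ratios of 0.887 and 0.926 and medians of 0.946 and 1.01. These ratios fell with the GC content of the body, to 0.425 and 0.510 in the 919 genes with a GC content of 50% and over. Intergenic bins of that GC content included bins with 10 or more H3K4me3 positions, which raised the expected number. Without such bins and their neighbours in the reference, an alternative chosen after seeing the data, the pooled ratios were 1.24 and 1.32 and the medians 1.17 and 1.25. Without them in the bodies too, the pooled ratios were 1.08 and 1.14. The direction of H3K4me3 against the intergenic level thus turned with the reference, while the Jarid1b ratios were 1.11 and 1.12 against the reference without H3K4me3 bins.

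**Figure D1:**
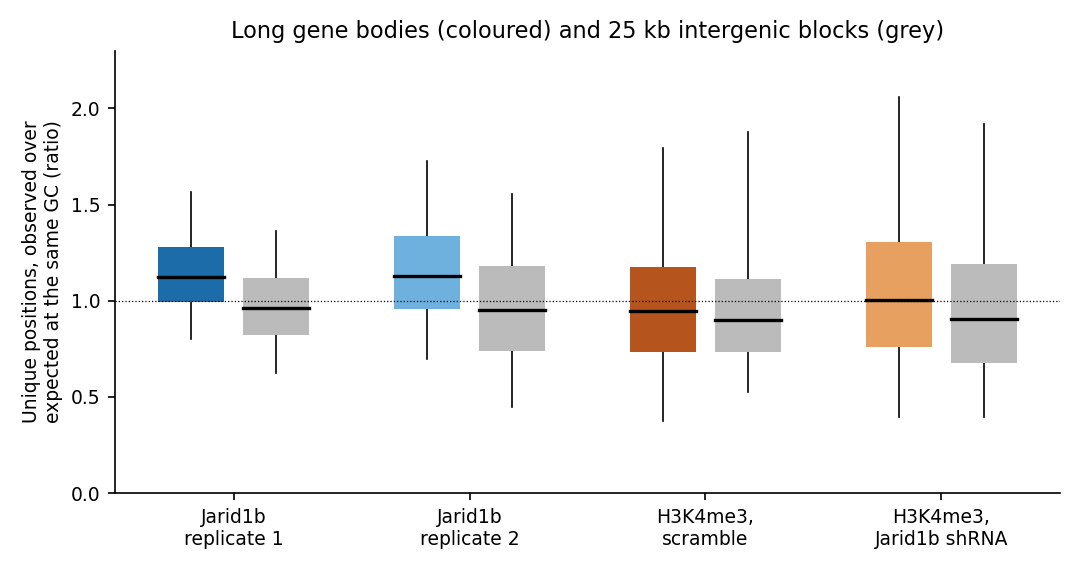
Ratio of observed to GC-expected positions in each library for 9276 long gene bodies (coloured) and 37275 intergenic blocks of 25 kb (grey); boxes span the middle 50% of genes or blocks, lines run from the 5th to the 95th percentile and black bars are medians. The Jarid1b bodies are shifted up against the blocks (medians 1.12 and 1.13 against 0.965 and 0.951), with wide overlap.

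**Figure D2:**
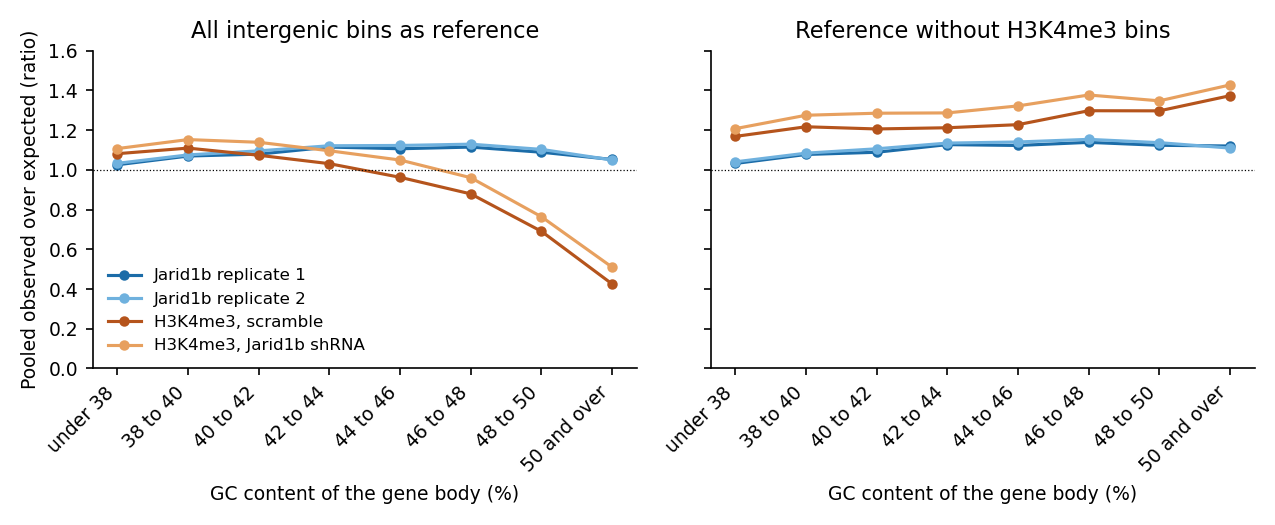
Pooled ratio of observed to expected positions against the GC content of the gene body (x axis, classes in %), for each library, with all intergenic bins as reference (left) and without bins of 10 or more H3K4me3 positions and their neighbours (right). The H3K4me3 lines fall to 0.425 and 0.510 at 50% GC and over on the left and stand at 1.37 and 1.43 on the right, while the Jarid1b lines stay between 1.03 and 1.15 in both panels.

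Single gene bodies rarely stood apart. By negative binomial tail tests adjusted over all genes (Benjamini-Hochberg, threshold 0.05), Jarid1b was higher than expected in both libraries in 24 of 9276 bodies (0.259%) and lower in 2 (0.0216%). Taken singly, replicate 1 had 59 higher (0.636%) and 12 lower (0.129%) bodies and replicate 2 had 29 higher (0.313%) and 3 lower (0.0323%). Of intergenic blocks, 10 (0.0268%) were higher in both and 0 lower, with 47 (0.126%) higher and 15 (0.0402%) lower in replicate 1 and 18 (0.0483%) higher and 0 lower in replicate 2. In simulated bodies, a 2-fold excess was recovered in 70% of genes in replicate 1 and 51% in replicate 2, and a 3-fold excess in 98% and 92%. The share among bodies was thus above that among blocks, but the 2 shares do not rest on equal depth. The median body held 83 and 31 Jarid1b positions and the median block 29 and 10. Of the 24 bodies, 20 had under 90% unique 34-mers, against 2461 of all 9276 bodies. The median of the 24 was 23.6% against 93.6% over all bodies. In all 24, the 2 H3K4me3 libraries were above 1 as well, and in 16 all 4 libraries were above 2. Over all 9276 bodies, all 4 libraries were above 1 in 2430 and above 2 in 22. The 24 were picked for high Jarid1b, so the Jarid1b part of these counts follows from the choice. With bins matched on GC content and unique 34-mers, 28 bodies were higher.

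A group of 8 of the 24 lay on chromosome 4 between bases 145104787 and 147183895, a stretch with 16 long genes, many of them predicted zinc finger genes, and a median of 9.22% unique 34-mers. 2610036A22Rik held 153 and 50 Jarid1b positions, 3.51 and 3.33 times expected, and 273 and 84 H3K4me3 positions, 6.97 and 5.87 times expected. Gm13242 held 525 and 175 Jarid1b positions (3.13 and 3.02 times) and 965 and 249 H3K4me3 positions, where 151 and 56.2 were expected. Over the 16 genes of the stretch the ratios ranged from 1.52 to 5.54 and from 1.10 to 4.47 for Jarid1b, and from 2.40 to 15.3 and from 1.66 to 6.84 for H3K4me3. Every library was high there. Outside the stretch, Phf10, which encodes a subunit of the BAF chromatin remodeler, held 109 and 31 Jarid1b positions (3.37 and 2.73 times) and 103 and 41 H3K4me3 positions (3.68 and 3.84 times), with 22.0% unique 34-mers. The part of non-unique sequence in these values was not tested.

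Among the bodies with at least 90% unique 34-mers, 4 were higher for Jarid1b. Ezh1 (chr11:101052429-101087777), which encodes a histone H3K27 methyltransferase of the Polycomb repressive complex, held 71 and 29 positions in the Jarid1b libraries, 2.51 and 2.78 times expected (adjusted p = 0.00067 and 0.035, negative binomial tail test). Its H3K4me3 positions numbered 26 and 16, 1.12 and 1.61 times expected, so the Jarid1b libraries stood further from expectation, although 1 bin of 1 kb held 19.7% and 37.9% of the Jarid1b positions. Heatr7b1 showed the same order, with 166 and 66 Jarid1b positions (2.34 and 2.42 times) and 75 and 44 H3K4me3 positions (1.06 and 1.19 times). Cd244, which encodes a receptor of natural killer cells, held 131 and 37 Jarid1b positions (3.32 and 2.56 times) and 66 and 30 H3K4me3 positions (2.11 and 2.28 times). Dnahc8, which encodes an axonemal dynein heavy chain, held 1263 and 481 Jarid1b positions (2.43 and 2.48 times) and 808 and 390 H3K4me3 positions (1.84 and 1.96 times). Cd244 and Dnahc8 were thus above expectation with both antibodies, but H3K4me3 was not called in either body. These 4 bodies were picked for their Jarid1b, so its distance from expectation against that of H3K4me3 is a description. With GC classes of 5 points the calls of Ezh1, Cd244 and Phf10 were lost, while their log2 mean ratios were 1.41, 1.58 and 1.58. All 3 calls were also lost with bodies from 10 kb downstream, with no bin left out and at a threshold of 0.01, that of Ezh1 also with every row counted and a shift of 75 bases, and that of Phf10 without H3K4me3-enriched bins. Below expectation in both Jarid1b libraries were Skint3, with 14 and 4 positions (0.217 and 0.182 times), and Vmn1r112, with 65 and 20 (0.379 and 0.331 times). Their H3K4me3 ratios were 0.217 and 0.179 for Skint3 and 0.536 and 0.362 for Vmn1r112, low in every library, and Vmn1r112 had 0.651% unique 34-mers.

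Kdm5b itself (chr1:136456748-136529454), the gene of Jarid1b, held 125 and 70 Jarid1b positions in 63.7 kb of usable body, 1.37 and 2.15 times expected. The excess passed the threshold in replicate 2 (adjusted p = 0.041, negative binomial tail test) and not in replicate 1 (0.58), so it was not called. The body held 259 scramble and 118 shRNA H3K4me3 positions, 3.31 and 3.83 times expected. Neither passed the threshold (adjusted p = 0.57 and 0.34, negative binomial tail test). The log2 ratio of shRNA to scramble was 0.21 (-0.11 to 0.53). The interval includes 0, so no difference between the H3K4me3 libraries was detectable at this depth.

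H3K4me3 was higher than expected in 40 bodies (0.431%) in the scramble library and in 29 (0.313%) in the shRNA library, 19 (0.205%) of them in both, and 0 were lower by the negative binomial test. By a Poisson test, which leaves out the spread between intergenic blocks, 2427 and 1453 of 9276 were lower and 1463 and 1296 higher. Of intergenic blocks, 49 (0.131%) and 20 (0.0537%) were higher by the negative binomial test. The median block held 25 scramble and 10 shRNA positions, against 65 and 31 in bodies, so these shares do not rest on equal depth. The spread between blocks limits the negative binomial test: a simulated 3-fold excess was recovered in 19% of bodies in the scramble and 9% in the shRNA library. Without H3K4me3 bins in the reference, 1220 and 1153 bodies were higher by that test, and without them in the bodies too 189 and 274. Etv5, which encodes a transcription factor of the ETS family, held 717 and 250 positions, 8.33 and 6.46 times expected. Klf9, a Krüppel-like factor gene, held 239 and 117 (7.93 and 8.53 times), and Spats1 held 270 and 102 (8.89 and 7.75 times). Tet1, which encodes an enzyme that oxidises 5-methylcytosine, held 854 and 341 (6.45 and 5.77 times), and Trim71, a stem cell ubiquitin ligase gene, held 745 and 361 (5.12 and 4.89 times). These bodies were named for their high scramble H3K4me3 ratios, so lower Jarid1b ratios in them are a description. Etv5 held 177 and 65 Jarid1b positions (1.61 and 1.58 times) and Tet1 238 and 86 (1.79 and 1.77 times). Klf9 held 55 and 11 Jarid1b positions, where 36.6 and 13.7 were expected. In these bodies the H3K4me3 positions were gathered: the densest 1 kb bin held a median of 25.1% of the scramble positions of the 40 called bodies, against 11.1% over all bodies.

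Bins with H3K4me3 made up little of the bodies. Of body bins, 1173 (0.158%) were enriched in both H3K4me3 libraries, at least 4 times expected with at least 10 positions. A further 2824 were enriched in the scramble library alone and 263 in the shRNA library alone. The shRNA library held fewer positions, so its bins reached 10 less easily and these counts do not rest on equal depth. The bins of the scramble library alone stood at 5.11 times expected in the shRNA library, and those of the shRNA library alone at 2.51 times in the scramble library. The bins enriched in both held 39732 scramble positions, 11.1 times expected. Jarid1b held 1.53 and 1.63 times the expected number there and 1.08 and 1.09 times in the 737734 bins enriched in neither. The bins enriched in both held 5312 and 2167 Jarid1b positions, while those enriched in neither held 1312174 and 482169, or 98.7% and 98.6% of the Jarid1b positions in bodies.

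Genes with a marked promoter had a higher Jarid1b ratio in the body. A promoter was marked when the window of 1 kb on each side of the TSS held at least 10 scramble positions and 4 times the expected number. This held for 3048 of 9276 genes. Unmarked does not mean without H3K4me3, because the expected number was large at high GC content. The unmarked promoter of Trim71 held 135 scramble positions, 2.97 times expected. Their bodies had pooled Jarid1b ratios of 1.19 (1.18 to 1.19) and 1.20 (1.19 to 1.21), against 1.06 (1.06 to 1.06) and 1.07 (1.07 to 1.07) in the 6228 others. The marked class was higher on 19 of 19 chromosomes in each Jarid1b library, by 1.03 to 1.22 times and 1.06 to 1.18 times. The H3K4me3 ratios of the bodies were 1.06 against 0.842 (scramble) and 1.12 against 0.876 (shRNA), so all 4 libraries ordered the classes alike. Genes are not replicates, so no p-value was computed over them. The window lies outside the body, and the scramble library that set the class also gave one of the body values.

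The order held within classes of length and GC content. Among genes of 20 to 30 kb the Jarid1b ratios were 1.21 and 1.22 (marked) against 1.11 and 1.10 (unmarked), and among genes over 200 kb 1.11 and 1.11 against 1.005 and 1.01. At a body GC content of 44 to 46% they were 1.22 and 1.24 against 1.07 and 1.08. At a GC content of 50% and over, the difference shrank to 1.09 and 1.10 against 1.05 and 1.04. Against the reference without H3K4me3 bins, 6790 promoters were marked, and the pooled Jarid1b ratios were 1.13 and 1.14 against 1.05 and 1.05.

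Jarid1b declined with distance from the TSS. From 5 to 10 kb downstream the pooled ratios were 1.16 (1.15 to 1.17) and 1.17 (1.16 to 1.18), from 20 to 50 kb 1.13 and 1.14, from 100 to 200 kb 1.06 and 1.07, and beyond 200 kb 0.994 (0.9902 to 0.998) and 1.002 (0.995 to 1.01). Within marked genes the values went from 1.27 and 1.27 to 1.06 and 1.05. The intervals of the nearest and the farthest class did not overlap in either library. The farthest class comes only from the 904 longest genes, so distance and gene length cannot be told apart there. H3K4me3 in marked genes dropped more steeply, from 1.41 and 1.55 at 5 to 10 kb to 1.02 and 1.08 at 20 to 50 kb. It was 1.03 and 1.06 at 100 to 200 kb and lower again beyond 200 kb, at 0.942 (0.932 to 0.953) and 0.995 (0.978 to 1.01). In unmarked genes H3K4me3 was below 1 in every class of distance, at 0.879 and 0.943 from 5 to 10 kb and at 0.868 and 0.895 beyond 200 kb. Without H3K4me3 bins in the reference, H3K4me3 over all genes went from 1.48 and 1.61 at 5 to 10 kb to 1.10 and 1.15 beyond 200 kb, so the decline remained while the level moved.

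When each body was divided into 10 equal parts from its start to its end, the Jarid1b ratio went from 1.12 and 1.13 in the first part to 1.07 and 1.09 in the last. In marked genes it went from 1.25 and 1.26 to 1.13 and 1.15, and in unmarked genes from 1.08 and 1.09 to 1.05 and 1.07. Jarid1b thus stayed above the intergenic level up to the end of the body in both classes. H3K4me3 in marked genes went from 1.40 and 1.54 to 0.834 and 0.857.

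**Figure D3:**
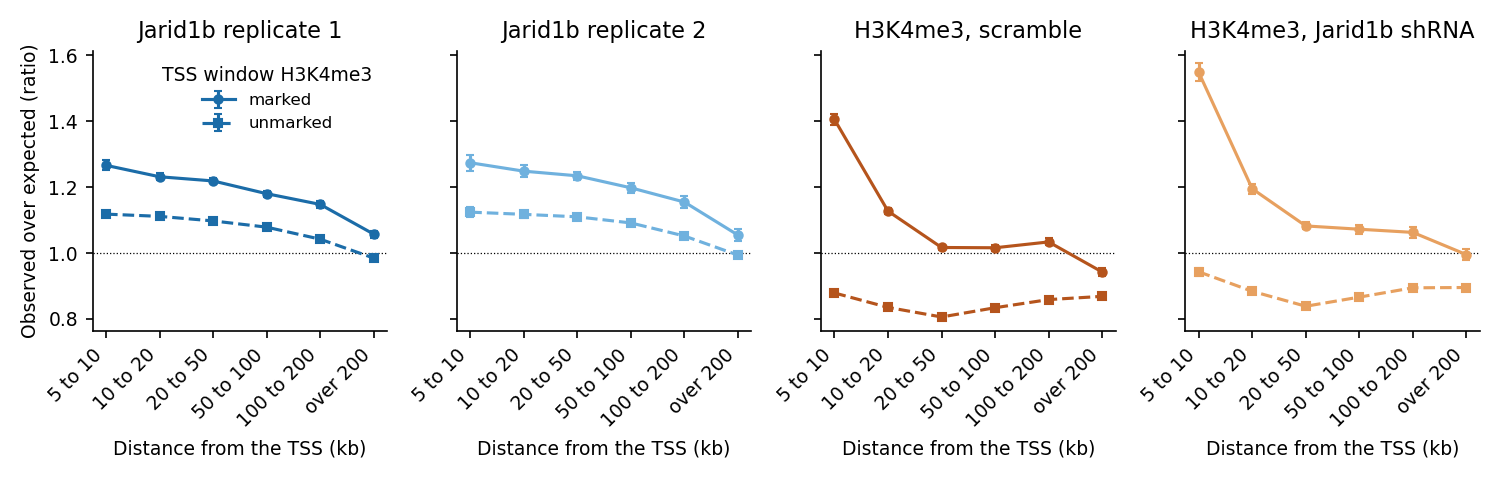
Pooled ratio of observed to expected positions (y axis) by distance downstream of the TSS (x axis, kb) for genes with a marked (circles, solid) and an unmarked (squares, dashed) TSS window, 1 panel per library. Marked means at least 4 times the GC-expected scramble H3K4me3 and at least 10 positions, and bars are 95% Poisson intervals. Jarid1b declines slowly in both classes, from 1.27 to 1.06 in marked genes of replicate 1, while H3K4me3 in marked genes drops between the first and the third class, stays near 1.02 (scramble) and 1.07 (shRNA) up to 200 kb and is lower in the last class (0.942 and 0.995).

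Exonic tiles had slightly higher Jarid1b ratios than intronic tiles. The share of unique sequence was not matched between these tiles, and its part in the difference was not tested. Against intergenic tiles of 200 bases of the same GC content, tiles at least 50% exonic had Jarid1b ratios of 1.18 (1.17 to 1.18) and 1.19 (1.18 to 1.20), and intronic tiles 1.10 (1.10 to 1.10) and 1.11 (1.11 to 1.12). The exonic tiles numbered 170288 and held 2.61 positions per kb in replicate 1, the intronic ones 3501319 and 1.75 positions per kb. For H3K4me3 the order depended on the reference: exonic tiles stood at 0.8002 and 0.952 and intronic ones at 1.01 and 1.08 against all intergenic tiles, but at 1.51 and 1.77 against 1.24 and 1.32 without H3K4me3 bins. For Jarid1b the same change gave 1.23 and 1.24 for exonic and 1.12 and 1.13 for intronic tiles, in the same order.

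Gene lists by function differed in their median body Jarid1b. Pluripotency and stem cell signalling genes had a median Jarid1b ratio (mean of both libraries) of 1.34 over 28 bodies, against 1.13 over all bodies, and 25 of the 28 were above 1 in both libraries, against 5439 of 9276. Housekeeping and transport genes had a median of 1.34 (28 bodies). The list of H3K4 and H3K36 methylation regulators, which also holds the Polycomb genes Ezh1, Eed and Suz12, had 1.30 (33 bodies). Transcription elongation and splicing genes had 1.29 (26 bodies). In these 4 lists the promoter was marked in 10, 21, 17 and 21 genes in the order given, and the share in the pluripotency list (35.7%) was near that over all bodies (32.9%). Developmental transcription regulators, with 3 marked promoters, had a median of 1.05 (49 bodies), and tissue genes of muscle, liver and blood 1.01 (37 bodies, 1 marked). Axon guidance genes stood at 0.948 (34 bodies) and synaptic adhesion, receptor and channel genes at 0.928 (46 bodies), of which 8 were above 1 in both libraries, with 4 and 0 marked promoters. The marks depended on the reference: without H3K4me3 bins in it, 31 of 34 axon guidance, 28 of 46 synaptic and 25 of 49 developmental promoters were marked, against 23 of 28 in the pluripotency list and 73.2% over all bodies. In these lists Jarid1b was called in 1 body, Ezh1, where the share over all bodies was 0.259%, so the lists differ by small shifts of many genes.

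The neuronal lists hold much longer genes, with median lengths of 276 kb (axon guidance) and 734 kb (synaptic) against 58.9 kb in housekeeping genes, and Jarid1b was lower in the longest genes. Its pooled ratios were 1.14 and 1.15 at 20 to 30 kb, 1.14 and 1.16 at 50 to 100 kb, 1.12 and 1.13 at 100 to 200 kb and 1.02 and 1.03 over 200 kb. The part of length in the order of the lists was not tested. The H3K4me3 medians separated the same 4 lists from the other 4, but not in the same order within them. The scramble medians were 1.36, 1.28, 1.17 and 1.15 in the pluripotency, housekeeping, methylation regulator and elongation lists, against 0.946 over all bodies. They were 0.804, 0.892, 0.929 and 0.934 in the developmental, tissue, axon guidance and synaptic lists, the reverse of the Jarid1b order among these 4. With H3K4me3 bins left out of reference and bodies, the pluripotency list was highest at 1.38, and the lowest became the synaptic list at 0.925, with developmental regulators at 0.993. Over 9274 bodies, the Jarid1b ratio had a Spearman correlation of 0.53 between the 2 Jarid1b libraries and of 0.41 and 0.31 with the scramble H3K4me3 ratio, values that share the GC content and unique sequence of the same bodies. Without an input library, a general tendency of these bodies to give reads and Jarid1b itself cannot be told apart.

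Within the pluripotency list, Rest, a repressor of neuronal genes, held 44 and 20 Jarid1b positions (1.75 and 2.12 times expected). Lifr, the receptor of LIF, held 203 and 76 (1.64 and 1.65 times), with 107 and 76 H3K4me3 positions. Among the methylation regulators, Eed, a Polycomb subunit, held 41 and 20 (1.599 and 2.26 times), and Morf4l1, which encodes a reader of H3K36 methylation, held 21 and 14 (1.31 and 2.54 times). Among elongation genes, Ccnt1, the cyclin of P-TEFb, held 27 and 12 (1.67 and 2.13 times) and the splicing factor gene Sf3b1 47 and 24 (1.32 and 2.02 times). None of these 6 passed the adjusted test in both libraries. At the other end, Cntnap2, a neuronal adhesion gene with a body of 2216 usable kb, held 2070 and 691 positions (0.940 and 0.927 times). Ptprd, a receptor phosphatase gene, held 1723 and 597 (0.876 and 0.913 times), and Lrp1b, a lipoprotein receptor family gene, 1665 and 544 (0.957 and 0.944 times). The counting intervals of Cntnap2 and Ptprd lay below 1 in both libraries, and those of Lrp1b reached above it. These intervals leave out the spread between intergenic blocks, and by the negative binomial test none of these genes was called lower. Gm20388 and Fgfr2, the longest as annotated and overlapping other long genes, stood at 1.07 and 1.05 and at 1.06 and 1.04.

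Single members departed from their list. Among developmental regulators, Lhx2, a LIM homeobox factor of the forebrain, held 94 and 35 Jarid1b positions (1.72 and 1.65 times expected) but 42 and 40 H3K4me3 positions (0.297 and 0.507 times). Nfix, a nuclear factor I gene, held 360 and 148 Jarid1b positions (1.31 and 1.38 times) and 170 and 155 H3K4me3 positions (0.311 and 0.515 times). Both had Jarid1b above and H3K4me3 below the intergenic level of all bins. In the axon guidance list, Nrp2, a semaphorin co-receptor, held 311 and 122 Jarid1b positions (1.24 and 1.30 times), and Robo1, a Slit receptor with a marked promoter, 553 and 188 (1.23 and 1.21 times). Among synaptic genes, Ryr2, a calcium release channel, held 914 and 331 (1.12 and 1.14 times). Among tissue genes Ttn, the titin gene of muscle, held 429 and 139 (1.22 and 1.11 times). These stood above their list medians, and none was called.

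**Figure D4:**
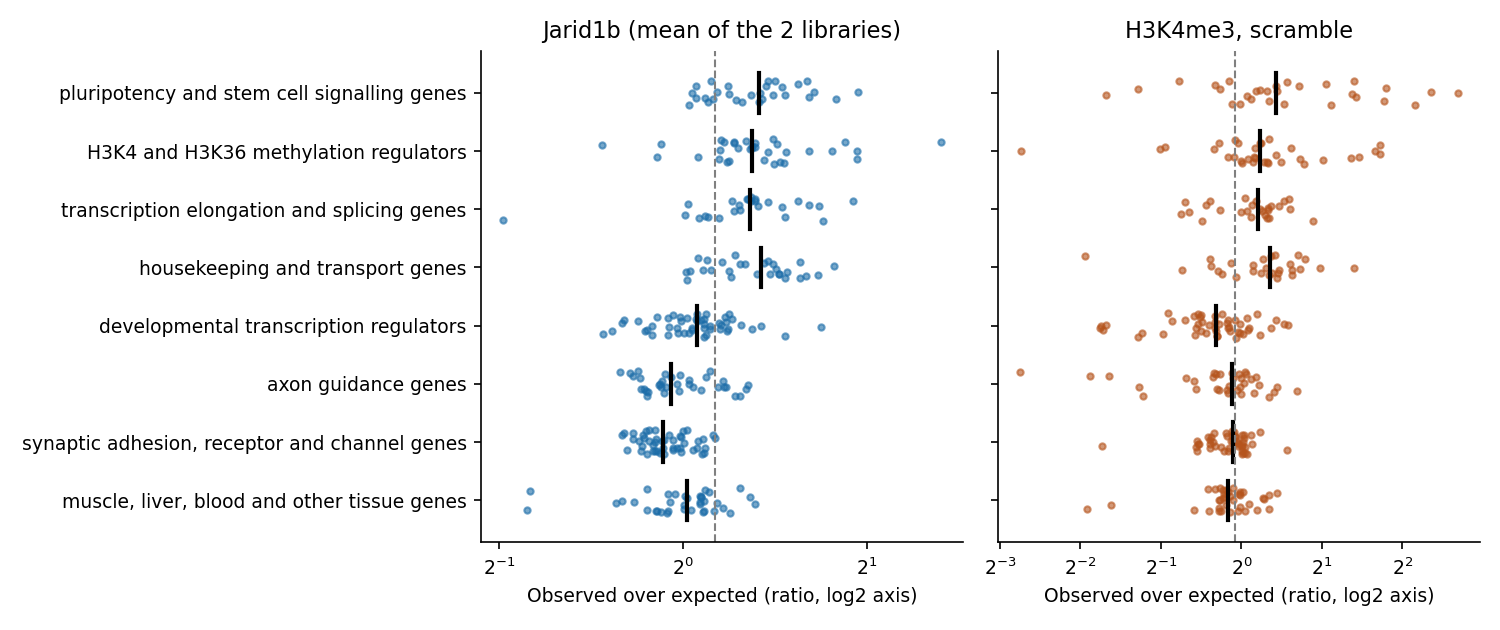
Ratio of observed to expected positions (x axis, log2) of each long gene body in 8 gene lists, for Jarid1b (mean of both libraries, left) and scramble H3K4me3 (right); points are genes, black bars list medians and dashed lines the median over all bodies. The pluripotency, housekeeping, methylation regulator and elongation lists lie to the right of the dashed line in Jarid1b (medians 1.29 to 1.34) and the neuronal lists to its left (0.948 and 0.928).

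H3K4me3 in bodies was slightly higher in the shRNA library than in the scramble library relative to intergenic space. There is 1 library per condition, so there is no test and no replicate check. The median log2 ratio over bodies was 0.12, and 5912 of 9276 (63.7%) were above 0, against a median of -0.0073 over intergenic blocks. At a 1.5-fold difference with an interval that excluded 0, 442 bodies (4.76%) were higher and 104 (1.12%) lower, while of intergenic blocks 955 (2.56%) were higher and 822 (2.21%) lower. Blocks held fewer positions than bodies, so these shares do not rest on equal depth. With matching on unique 34-mers too, the median was 0.021 with 212 higher and 180 lower. Scaled to library totals, where the promoters weigh in, the median was -0.16 with 273 higher and 691 lower. The direction of the difference between the libraries therefore turned with the scaling and was not settled by these data. The list medians were 0.29 (housekeeping), 0.23 (elongation), 0.21 (pluripotency), 0.18 (methylation regulators), 0.15 (developmental), 0.10 (axon guidance), 0.07 (synaptic) and 0.05 (tissue genes). By the 1.5-fold rule, 5 of 49 developmental regulators (10.2%), 3 of 33 methylation regulators (9.09%) and 2 of 28 pluripotency genes (7.14%) were higher. So were 2 of 34 axon guidance (5.88%), 2 of 37 tissue (5.41%) and 1 of 26 elongation genes (3.85%), against the 4.76% over all bodies. Of the 28 housekeeping and the 46 synaptic genes, 0 were higher. The only listed gene that was lower was Cd36, a fatty acid transporter gene, with 155 and 42 positions (-0.64, -1.17 to -0.14). Without H3K4me3 bins in the reference, 1 of 49 developmental regulators and 1 of 34 axon guidance genes were higher, with 319 bodies (3.44%) higher and 129 (1.39%) lower over all. The relation to GC content also turned with the reference. At a GC content of 50% and over, 119 of the 919 bodies were higher (12.9%) and the median log2 ratio of 0.26 was the highest of the 8 GC classes, but without H3K4me3 bins in the reference it was 0.042, the lowest of the 8.

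Lifr held 107 scramble and 76 shRNA positions, a log2 ratio of 0.67 (0.22 to 1.10). Prox1, a homeobox factor gene, held 48 and 41 (0.92, 0.28 to 1.55), and Unc5a, a netrin receptor gene, 84 and 98 (1.08, 0.64 to 1.52). Nfix stood at 0.73 (0.40 to 1.05) and Lhx2 at 0.77 (0.11 to 1.43). In these 5 genes the shRNA library was higher relative to GC-matched intergenic bins, but with unique 34-mers matched too Nfix stood at 0.28 and Lhx2 at 0.062. Plxna1, a semaphorin receptor gene with 66 and 58 positions, went from 0.64 to -0.035 when unique 34-mers were matched too. The muscle genes Ldb3 and Neb held 178 and 168 (0.85, 0.53 to 1.16) and 156 and 104 (0.78, 0.41 to 1.15).

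The largest single differences rested on few positions. Kdm1a, which encodes another H3K4 demethylase, held 43 scramble and 51 shRNA positions, 1.27 and 3.59 times expected, a log2 ratio of 1.502 (0.89 to 2.12). Slc31a1, a copper transporter gene, held 23 and 28 (log2 ratio 1.67, 0.82 to 2.53) and Dusp14, a dual specificity phosphatase gene, 27 and 37 (1.502, 0.75 to 2.27). Suz12, a Polycomb subunit gene, held 24 and 20 positions (1.29, 0.36 to 2.21). In the other direction, Brd3, which encodes a bromodomain protein that binds acetylated histones, held 238 scramble and 38 shRNA positions, 1.10 and 0.328 times expected, a log2 ratio of -1.75 (-2.28 to -1.25). Ltf, the lactoferrin gene, held 33 and 4 (-1.91, -3.87 to -0.42), and Gdap2 65 and 8 (-1.66, -2.93 to -0.60). Gys2, the liver glycogen synthase gene, held 65 and 9 (-1.50, -2.69 to -0.48). Of the genes in this paragraph, Brd3 and Kdm1a had the most positions and intervals farthest from 0. Jarid1b stood at 1.48 and 1.46 times expected in Kdm1a and at 1.25 and 1.40 in Brd3, and neither was called. Over all bodies the log2 ratio had a Spearman correlation of 0.07 and 0.05 with the Jarid1b ratios, a weak correlation in sparse counts.

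**Figure D5:**
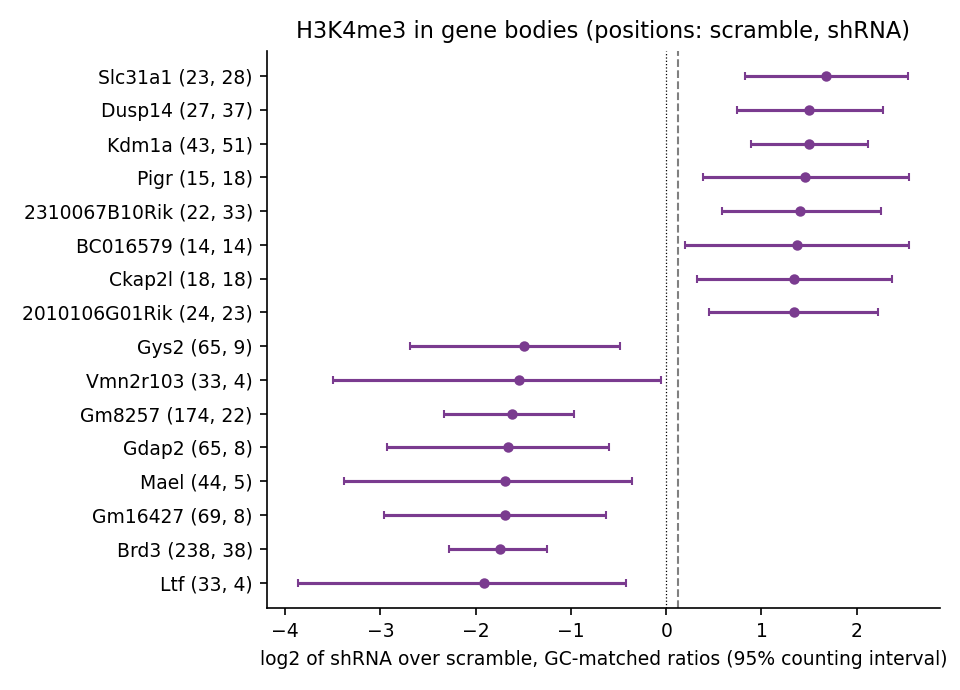
Log2 ratio of GC-matched H3K4me3 in the shRNA over the scramble library (x axis) for the 8 bodies with the highest and the 8 with the lowest value among those with an interval that excludes 0; bars are 95% intervals of counting error, numbers beside the names are positions (scramble, shRNA), and the dashed line is the median over all bodies, 0.12. Brd3 (238 and 38 positions) and Kdm1a (43 and 51) have the shortest intervals on their sides.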

How the data were processed

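Each deposited row gives the mapped coordinates and strand of 1 read and a score that is 0 throughout, as the authors deposited it. Mapping to mm9 with Bowtie is per the submitters' processing notes, with no version given in the sources used here. The labels' protocols describe 1 count per position, peak calling with MACS and normalization to IgG, but the deposited reads still repeat positions (7.64% to 31.8%), so each position was counted once. Amplified reads carry no molecular identifiers here, so they may not stand for separate molecules, and intervals cover counting error only. Genome and genes were NCBIM37 (mm9) and GENCODE vM1. Expected numbers came from intergenic bins of 1 kb in GC classes of 1 point with at least 500 bins, without bins of 30 or more positions in Jarid1b replicate 1 (122 left out of bodies). Bodies were tested by negative binomial tails with the dispersion of 25 kb intergenic blocks (0.0266, 0.0285, 0.305 and 0.316 for both Jarid1b, scramble and shRNA libraries), adjusted by Benjamini-Hochberg over genes and both tails at 0.05. The code was tested on simulated data over 9276 genes, with 100 genes changed at each fold. Python 3.11.15, NumPy 2.4.6, SciPy 1.17.1, pandas 2.3.3 and Matplotlib 3.10.9 were used. Members, lists and tests were chosen with earlier results of these data known. Named genes were Kdm5b, the 5 longest bodies, the extremes by Jarid1b, H3K4me3 and shRNA to scramble ratio among genes with at least 30 expected positions and no bin over 25% of them, and the extremes of each list. Heatr7b1 and Dnahc8 were chosen after their values were seen. Items named by these rules that are withheld are not reported here.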

Additional observations from a re-analysis of the deposited data

How the results depend on the processing

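No paired analysis was possible because each H3K4me3 condition has 1 library and the Jarid1b libraries have no control group. The alternatives on H3K4me3 bins left out of the reference, and on bodies with at least 90% unique 34-mers, were chosen after seeing the data. The 24 bodies higher for Jarid1b became 29 to 59 with 1 library left out, 4 among bodies with at least 90% unique 34-mers, 16 with GC classes of 5 points, 37 with intergenic bins over 50 kb from genes, 8 among genes of at least 50 kb, 7 with no bin left out, 513 by a Poisson test and 12 at a threshold of 0.01. The 2 lower became 3 to 12 with 1 library left out, 78 by a Poisson test, 1 with a shift of 75 bases and among genes of at least 50 kb, and 0 with GC classes of 5 points, every row counted, no bin left out, threshold 0.01 and among bodies with at least 90% unique 34-mers. The median Jarid1b ratio stayed above 1 under each alternative run: 1.14 with GC classes of 5 points, 1.13 with unique 34-mers matched, every row counted, H3K4me3-enriched bins left out and unique bodies, 1.17 with bins over 50 kb away, 1.12 from 10 kb downstream, 1.11 for genes of at least 50 kb and with no bin left out, and 1.15 with the reference without H3K4me3 bins. For scramble H3K4me3 the 40 higher became 10 (genes of at least 50 kb), 20 (H3K4me3-enriched bins left out), 1463 (Poisson), 26 (threshold 0.01), 1220 (reference without H3K4me3 bins) and 189 (bodies too), and the 0 lower became 1 (unique 34-mers), 9 (enriched bins out), 2427 (Poisson), 7 and 4. The scramble median of 0.946 became 1.03 (unique 34-mers), 0.993 (every row), 0.938 (10 kb), 0.961 (50 kb genes), 1.05 (enriched bins out), 1.17 and 1.10. For shRNA H3K4me3 the 29 higher became 3 (50 kb genes), 8 (no bin left out), 13 (enriched bins out), 1296 (Poisson), 1153 and 274, and the 0 lower became 1453 (Poisson), 5 and 4. The shRNA median of 1.01 became 1.05 (unique 34-mers), 0.994 (10 kb), 1.03 (50 kb genes), 0.996 (no bin left out), 1.10 (enriched bins out), 1.25 and 1.16. For shRNA against scramble, 442 higher and 104 lower became 273 and 691 (library totals), 119 and 53 (fold of 2), 212 and 180 (unique 34-mers) and 171 and 32 (50 kb genes), with 245 lower when every row was counted. The median log2 ratio of 0.12 reversed to -0.16 with library totals and was 0.021 (unique 34-mers), 0.037 (every row), 0.14 (bins over 50 kb away), 0.11 (50 kb genes), 0.10 (enriched bins out) and 0.080 (reference without H3K4me3 bins). Marked over unmarked promoters gave 1.12 for Jarid1b and 1.13 (unique 34-mers), 1.13 (enriched bins out), 1.11 (8 times expected) and 1.08 (reference without H3K4me3 bins), and for H3K4me3, 1.26 in scramble and 1.28 in shRNA became 1.18 and 1.21, 1.15 and 1.19, 1.22 and 1.22, and 1.07 and 1.10 in that order. At 5 to 10 kb the reference without H3K4me3 bins gave 1.19 (Jarid1b), 1.48 (scramble) and 1.61 (shRNA), unique 34-mers 1.20 and 1.20 (H3K4me3) and enriched bins left out 1.09 and 1.18. Over 200 kb the same alternatives gave 1.01, 1.10 and 1.15, then 1.01 (Jarid1b, unique 34-mers), 0.968 and 0.955, and 0.935 and 0.964. Exonic over intronic was 1.07 for Jarid1b and 1.10 with the reference without H3K4me3 bins, where H3K4me3 reversed from 0.790 to 1.22 (scramble) and from 0.884 to 1.34 (shRNA), with 0.827 and 0.927 in wholly exonic tiles. With unique 34-mers, the median log2 shRNA to scramble ratio was -0.0052 in developmental, 0.0080 in axon guidance and -0.034 in tissue genes. Plxna1 reversed from 0.64 to -0.035 with unique 34-mers. The cause of these changes was not tested. Depth limits single genes: the median body held 31 positions in Jarid1b replicate 2 and in the shRNA library.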

Other observations

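The telomere repeat was searched in body and intergenic bins, as 4 tandem copies on either strand (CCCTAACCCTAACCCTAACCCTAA or its reverse complement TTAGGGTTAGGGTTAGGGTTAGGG). It occurred in 30 of 739002 whole body bins (0.00406%) and in 115 of 1058469 intergenic bins (0.0109%). Body bins with 30 or more positions in Jarid1b replicate 1 stayed left out, while intergenic bins were taken without this limit. The 30 body bins held 355 and 332 Jarid1b positions, 6.16 (5.54 to 6.84) and 15.6 (14.0 to 17.4) times expected, and 292 and 142 H3K4me3 positions, 5.44 and 5.84 times expected. All 30 were above expectation in Jarid1b replicate 2, 27 in replicate 1, 24 in scramble and 23 in shRNA H3K4me3. Intergenic bins with the repeat stood at 37.8 and 67.8 times expected for Jarid1b and 32.9 and 51.2 times for H3K4me3. Their densest bin held 704 positions in Jarid1b replicate 1, against 29 in bodies, so the limit on body bins prevents a comparison of the 2 sets. The pattern was noticed in these data and is given as a description. The median body bin with the repeat had 88.9% unique 34-mers.

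Dnahc8 on chromosome 17 was the longest of the 4 bodies called for Jarid1b with at least 90% unique 34-mers. Its neighbour Btbd9, chosen after its values were seen, held 1097 and 356 Jarid1b positions (1.59 and 1.40 times expected) and 694 and 329 H3K4me3 positions (1.15 and 1.21 times). Zfand3, next to Btbd9 on the other side, stood at 1.12 and 1.10 for Jarid1b and 0.929 and 1.14 for H3K4me3. Both neighbours were lower than Dnahc8 in all 4 libraries, and neither was called. Dnahc8 was singled out for its Jarid1b call, so this order is a description and no measure of how local the excess is.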
